A study of Mus musculus with 6 samples.

Results

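Nonsense-mediated decay is the surveillance route that destroys mRNAs whose reading frame ends too early. The 9 genes described here encode its central factors and were chosen by name. They are the helicase Upf1, its activator Upf2, the adaptors Upf3a and Upf3b, the kinase Smg1, the adaptor Smg5, the endonuclease Smg6, and the exon junction complex subunits Casc3 and Eif4a3. All 9 were found among the 23038 genes listed in each file, and all 9 passed the filter on low counts, which 12665 genes passed in all.

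The measurements are poly-A mRNA sequencing of NSC-34, a mouse motor neuron-like hybrid of neuroblastoma and spinal cord cells, grown in DMEM with 10% serum. 3 libraries came from cultures given control siRNA (siNC) and 3 from cultures given siRNA against Qk (siQk), the gene for the Quaking family of splicing regulators. All libraries came from this 1 line at a single time after transfection, 3 different siRNAs against Qk were used, and no label says which library received which. The study linked loss of Qki5 to the decay of transcripts with cryptic exons, and the comparison here is of the decay machinery itself, siQk against siNC.

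In mammalian cells, splicing leaves an exon junction complex a short way upstream of each exon-exon junction. EIF4A3 clamps it onto the RNA, the MAGOH and RBM8A pair locks the clamp, and CASC3 joins the outer surface. When a ribosome terminates with such a complex still downstream, UPF3 and UPF2 connect it to UPF1, SMG1 phosphorylates UPF1, and SMG5 and SMG6 then bring decapping, deadenylation and cleavage. Several of the UPF and SMG mRNAs are themselves known to be substrates of the pathway, which makes their levels a feedback readout.

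Annotated transcripts of some of the 9 genes illustrate the rule that the factors read, but do not test it. Of the 9 genes, 3 (Smg1, Smg5 and Smg6) have a transcript that GENCODE M21 types as a target of nonsense-mediated decay, against 29.4% of the tested coding genes. The last 18 coding bases and the stop codon, in capitals, are shown 5′ to 3′ for the main coding transcript and the decay transcript of each gene, because the decay type rests on a stop upstream of an exon-exon junction.
Smg1 coding transcript, chr7:118135541-118135561, minus strand: ggttggacagcttgggtgTGA
Smg1 decay transcript, chr7:118210780-118210800, minus strand: accgaagactggctactgTAA
Smg5 coding transcript, chr3:88361088-88361108, plus strand: cagtggaaggagattggtTGA
Smg5 decay transcript, chr3:88347577-88349111, plus strand, with an intron inside this span: atgtattgctacttgcgcTGA
Smg6 coding transcript, chr11:75162930-75162950, plus strand: acgtgggcccaggtgggcTGA
Smg6 decay transcript, chr11:74990076-74990096, plus strand: gacattccctgcagtggcTGA
Coordinates are of GRCm38. The stop of each coding transcript lies in its last exon, the exon numbered 63 for Smg1, 22 for Smg5 and 19 for Smg6. In the decay transcripts it lies in exon 2 of 61 for Smg1, exon 5 of 9 for Smg5 and exon 8 of 17 for Smg6. The last exon-exon junction then follows 10397, 434 and 1379 bases after the stop. The annotated start of the reading frame is incomplete in all 3 decay transcripts, and those of Smg1 and Smg5 carry GENCODE support level 5, its weakest, as does the coding transcript of Smg1. The deposited values sum all isoforms of a gene, so the share of these transcripts was not measured.

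Qki proteins bind an ACUAAY core, often beside a shorter UAAY element. The core, searched as ACTAAC or ACTAAT on the RNA strand of the main coding transcript, was found in 3 of the 9 genes, against 43.6% of 11004 tested coding genes searched in the same way. The 9 transcripts held 6 cores in all, or 0.132 per kilobase against 0.214 per kilobase over the tested coding genes. All 6 were in coding sequence, 4 of them in Smg1 and 1 each in Upf2 and Smg5. The 30-base windows shown are the core with such an element (TAAC or TAAT within 1 to 20 bases on either side), which occurred once, and the cores of Upf2 and Smg5, with core and element in capitals.
Smg1, chr7:118135572-118135601, minus strand: ggaagcaACTAATctagaTAACttggctca
Upf2, chr2:6051538-6051567, plus strand: gctccagcaaacACTAATcgtgagcggcgg
Smg5, chr3:88342541-88342885, plus strand, with an intron inside this span: caacttatcaagACTAACaaaaagcacatc
A core with the shorter element was present in 15.6% of the tested coding genes. Longer transcripts hold more cores by length alone, and the Smg1 transcript has 15557 bases against a median of 3059. Introns, where Qki5 also binds, were not searched. The letters are a description of these windows, not sites of measured binding.

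Library totals ran from 43000503 to 53565950 counts, so each of the 9 genes rested on at least 1045 counts per library, and counting error was smaller than the spread between cultures. Qk itself was 9.67, 8.18 and 14.9 RPKM (reads per kilobase of exon, scaled to the library total) in siNC replicates 1 to 3. It was 1.39, 1.71 and 1.10 RPKM in siQk replicates 1 to 3, below every siNC library. Neuron-like markers were above 1 RPKM for 8 of 10 genes in every library, with a summed level of 840 to 1480 RPKM in siNC and 855 to 1245 RPKM in siQk. The largest part of the sum was Prph, at 559 to 949 RPKM in siNC and 421 to 681 RPKM in siQk. In fold change Prph was the 1 lower of the 8 tested markers, and 7 were higher. Of these markers, Isl1, a transcription factor of motor neurons, had the smallest p. It was 4.83, 4.75 and 4.80 RPKM in siNC and 9.63, 7.80 and 8.33 RPKM in siQk, with separate groups and a log2 fold change of 0.82 (edgeR quasi-likelihood, unadjusted p 0.0010, adjusted p 1, not called), and its part in the results on the 9 genes was not tested. The marker of cholinergic neurons Chat was near absent, at 0.0297 to 0.141 RPKM, and the neuronal marker Stmn2 had at most 0.00796 RPKM. In such bulk cultures, fewer cells of a type and less RNA per cell cannot be told apart.

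After Qk knockdown, none of the 9 factors passed the test for a change. In the edgeR quasi-likelihood test over 12665 genes, called at p under 0.01 and an adjusted p under 0.1, 0 of 9 were called, where 0.0079% of all genes were (1 gene, Qk). At an unadjusted p under 0.05 the count was 0 of 9, against 2.89% of all genes (1.2% higher and 1.69% lower in siQk). The edgeR exact test, likelihood-ratio test, DESeq2 and voom with quality weights also gave 0 of 9 at both cutoffs. The unadjusted p ran from 0.419 for Smg5 to 0.931 for Smg6. The RPKM of the groups overlapped for all 9, while they stood apart for 8.84% of all genes (5.35% higher and 3.49% lower in siQk). A log2 fold change above 0 was seen for 5 of 9, against 50.8% of all genes. The median log2 fold change, siQk over siNC, was 0.015 over the 9 genes and 0.0034 over all genes tested, and the median absolute log2 fold change was 0.057 and 0.15. The scaled log2 CPM had a median pooled SD of 0.181 for the 9 genes and 0.263 for all genes tested, and 7 of 9 had a smaller SD than the latter. The 9 genes had a mean log2 CPM of 4.62 to 8.16, while all genes above 0 were tested. Comparisons with all genes, here and below, were not matched for level, so they do not show that the 9 genes were unusually stable.

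How large a change these libraries leave possible differed from gene to gene. Each difference is siQk minus siNC in mean TMM-scaled log2 CPM, with a 95% interval from the pooled spread of the libraries (n = 3 and 3). The interval lay within 0.5 log2 units either side of 0 for 5 of 9 genes (Upf1, Smg5, Smg6, Casc3 and Eif4a3). It lay within 1 log2 unit for 8 of 9, against 8705 of all 12665 genes tested. The exception among the 9 was Upf2, whose interval reached 1.05. A p that misses the cutoff does not show that the levels were equal.

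**Figure D1:**
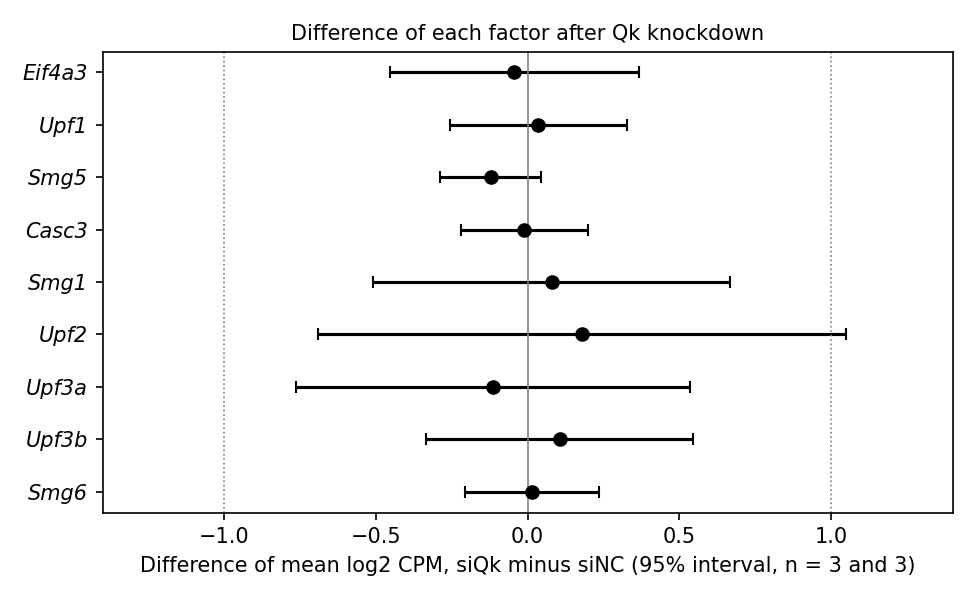
Difference of mean TMM-scaled log2 CPM, siQk minus siNC, for each of the 9 genes, with its 95% interval (bars, n = 3 and 3) and dotted lines at 1 log2 unit either side of 0. All 9 intervals span 0, and the widest, that of Upf2, runs from -0.69 to 1.05.

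The level per kilobase of exon ran from Eif4a3, far above the rest, to Smg6, with part of the order between them unresolved. Over the 6 libraries the median was 161 RPKM for Eif4a3, 37.4 for Upf1, 20.5 for Smg5, 20.3 for Casc3, 14.5 for Smg1, 11.1 for Upf2, 7.11 for Upf3a, 6.49 for Upf3b and 4.79 for Smg6. Eif4a3 was 4.31 times the next gene. The ranges over 6 libraries overlapped between the neighbours Smg5 and Casc3, Smg1 and Upf2, and Upf3a and Upf3b, so their order was not resolved beyond the spread. All other neighbours in this order had separate ranges, but Upf3a, at 4.92 to 7.60 RPKM, also overlapped Smg6, at 4.38 to 5.07 RPKM. The order holds only for the lengths counted over, which were 5209, 3840 and 20585 bases for Upf3a, Upf3b and Smg1. Their main coding transcripts in GENCODE M21 are shorter, at 2057, 2344 and 15557 bases, so the order between Eif4a3 and Smg6 could differ with other lengths.

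**Figure D2:**
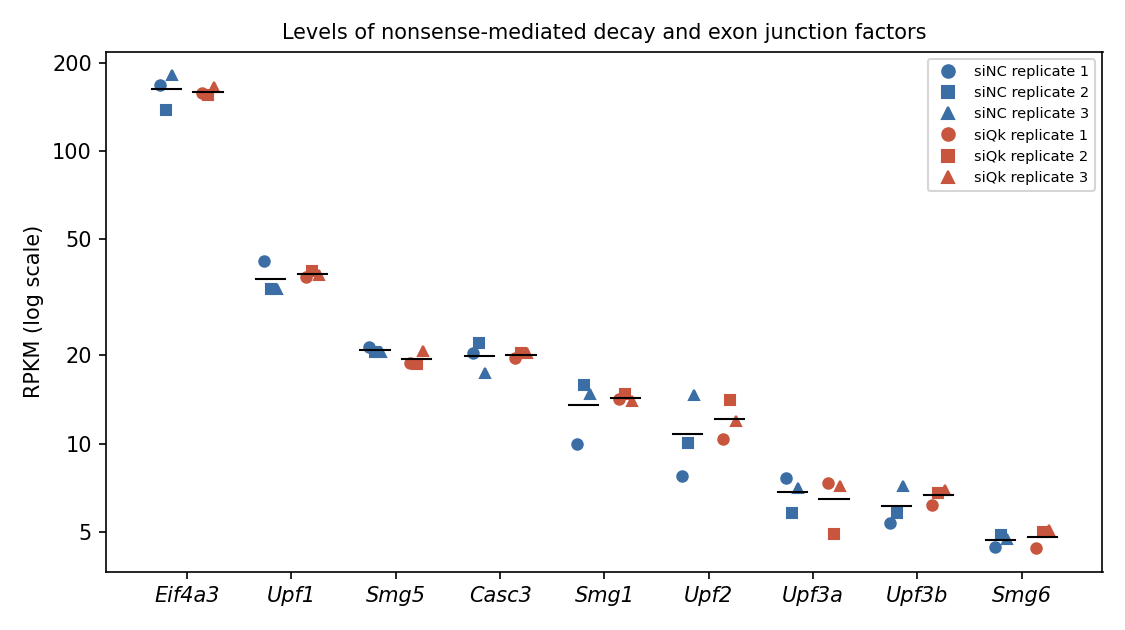
Level of each gene in RPKM on a log scale, siNC in blue and siQk in red, 1 point per library (circle, square and triangle for replicates 1, 2 and 3) and a line at each group mean. Eif4a3 stands highest at 138 to 182 RPKM, and the siQk points lie among the siNC points for most genes.

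Upf1, the RNA helicase on which the pathway turns (chr8:70331525-70353278, minus strand, protein-coding), was 42.2, 33.9 and 33.7 RPKM in siNC replicates 1 to 3. It was 37.1, 38.9 and 37.7 RPKM in siQk replicates 1 to 3. All 3 siQk libraries lay between the highest and the lowest siNC library. The means were 36.6 ± 4.84 RPKM for siNC and 37.9 ± 0.895 RPKM for siQk (each with its SD, n = 3; two-sided exact permutation p = 0.7, where the smallest that 3 against 3 allows is 0.1). The difference was 0.035 log2 CPM, with an interval of -0.26 to 0.33.

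Upf2, which bridges UPF1 and the UPF3 proteins and stimulates the helicase (chr2:5951469-6056703, plus strand), was the most variable of the 9. Its level was 7.73, 10.0 and 14.6 RPKM in siNC and 10.4, 14.1 and 11.9 RPKM in siQk, in replicate order. The highest library was 1.89 times the lowest, and both were siNC libraries. The difference was 0.18 log2 CPM (SE 0.31, interval -0.69 to 1.05; exact permutation p = 0.7). The edgeR log2 fold change of Upf2 was 0.13, and it was 0.45 without siNC replicate 3 (unadjusted edgeR p 0.0526) and -0.067 without siNC replicate 1.

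The UPF3 paralogs bind the exon junction complex and hand it to UPF2, with UPF3B as the main adaptor. Upf3a (chr8:13785615-13799193, plus strand) was 7.60, 5.76 and 7.07 RPKM in siNC and 7.31, 4.92 and 7.15 RPKM in siQk. Replicate 2 was the lowest library in both groups. Upf3b (chrX:37091678-37110322, minus strand) was 5.34, 5.81 and 7.17 RPKM in siNC and 6.18, 6.79 and 6.96 RPKM in siQk, all 3 inside the siNC range. The difference was -0.11 log2 CPM for Upf3a (interval -0.76 to 0.53) and 0.11 for Upf3b (interval -0.33 to 0.55).

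As the paralogs share a role, their ratio within a library was compared, which no scaling of the library can move. The Upf3a to Upf3b ratio of RPKM was 1.42, 0.992 and 0.985 in siNC and 1.18, 0.725 and 1.03 in siQk. The groups overlapped, with means of 1.13 ± 0.250 and 0.978 ± 0.233 (SD, n = 3; exact permutation p = 0.6). The size of this ratio rests on the lengths counted over, 5209 bases for Upf3a and 3840 for Upf3b, while their main coding transcripts in GENCODE M21 have 2057 and 2344 bases, so which paralog was the higher per kilobase is not settled.

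Smg1, the kinase that phosphorylates UPF1 (chr7:118131308-118243670, minus strand), has the longest counted model of the 9, at 20585 bases. It was 9.99, 15.9 and 14.8 RPKM in siNC and 14.2, 14.8 and 13.96 RPKM in siQk. The 3 siQk libraries were close together and siNC replicate 1 lay below all the others. The difference was 0.080 log2 CPM (interval -0.51 to 0.67; exact permutation p = 1). In the same library the 1267 tested genes with the longest exons (7235 bases or more) had a median of -0.18 log2 CPM relative to each gene's mean, against -0.014 to 0.12 in the other 5 libraries. The part of this length shift in the low Smg1 value of siNC replicate 1 was not tested. Upf2 was also lowest in that library, but its counted model of 5174 bases is below that cutoff.

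Smg5 and Smg6 act on phosphorylated UPF1, SMG5 as a recruiter of deadenylation and decapping and SMG6 as the endonuclease. Smg5 (chr3:88336260-88362338, plus strand) was 21.4, 20.5 and 20.5 RPKM in siNC and 18.9, 18.7 and 20.7 RPKM in siQk. Of the siQk libraries, 2 lay below every siNC library and replicate 3 lay among them. Its means were 20.8 ± 0.505 and 19.5 ± 1.11 RPKM (SD, n = 3; exact permutation p = 0.3), the only siQk mean of the 9 outside the siNC range. The siQk mean lay inside it for the other 8 of 9, against 66.8% of all genes tested. The difference was -0.12 log2 CPM with a narrow interval of -0.29 to 0.045.

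Smg6 (chr11:74925823-75164448, plus strand) had the lowest median of the 9, at 4.44, 4.86 and 4.73 RPKM in siNC and 4.38, 4.97 and 5.07 RPKM in siQk. Its libraries spanned a 1.16-fold range with both groups mixed. The difference was 0.013 log2 CPM (interval -0.21 to 0.23). Of its annotated exon bases, 2.87% overlap exons of genes on the opposite strand (Srr and Gm12333), and the library kit keeps no strand.

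Among the exon junction subunits, Casc3 (chr11:98804905-98833814, plus strand) was 20.3, 22.1 and 17.5 RPKM in siNC and 19.5, 20.4 and 20.3 RPKM in siQk. The siQk libraries all lay inside the siNC range, and the difference was -0.011 log2 CPM (interval -0.22 to 0.20). Exons of Casc3 share 11.5% of their bases with opposite-strand exons (Msl1 and Gm12359 overlap the gene), so part of its reads could not be assigned by strand.

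Eif4a3, the DEAD-box protein that clamps the complex onto RNA (chr11:119288363-119300089, minus strand), was 168, 138 and 182 RPKM in siNC and 158, 155 and 165 RPKM in siQk. All 3 siQk libraries again lay inside the siNC range, which siNC replicates 2 and 3 set at its ends. The means were 162 ± 22.5 and 159 ± 5.34 RPKM (SD, n = 3; exact permutation p = 0.9), and the difference was -0.044 log2 CPM (interval -0.45 to 0.37). Of the 75-base stretches of its main transcript, 13.0% are found unchanged in Gm8994, Gm5580 or Gm5576, copies elsewhere in the genome, so reads there are uncertain. Gm8994 itself had 4 to 11 counts per library.

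The translation initiation paralogs of Eif4a3 were lower in every library. Eif4a1 was 30.7 to 41.2 RPKM and Eif4a2 was 32.9 to 44.0 RPKM. The Eif4a1 value is uncertain, because 62.9% of the 75-base stretches of its main transcript are also present in other genes or pseudogenes, against 7.59% for Eif4a2. Their log2 fold changes were -0.11 and -0.15, and neither passed the test (edgeR adjusted p 1 for both).

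The Eif4a3 to Casc3 ratio was 8.27, 6.22 and 10.4 in siNC and 8.06, 7.60 and 8.13 in siQk, so the siQk values lay inside the siNC range (exact permutation p = 0.8). The Upf1 to Upf2 ratio was 5.45, 3.37 and 2.30 in siNC and 3.58, 2.77 and 3.16 in siQk (exact permutation p = 0.8). For both ratios the extremes were siNC libraries.

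**Figure D3:**
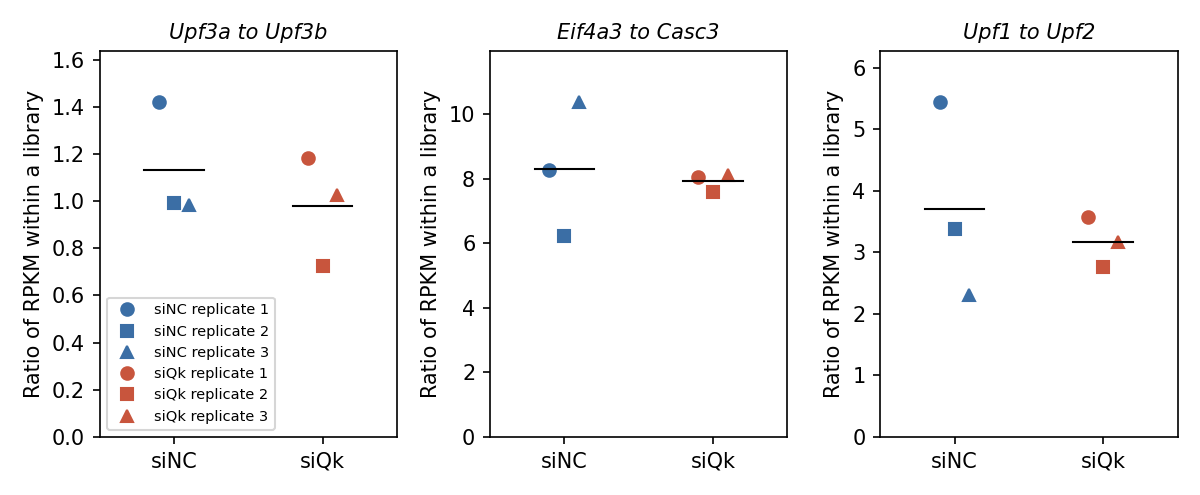
Ratio of RPKM within a library for 3 pairs of factors, siNC in blue and siQk in red, 1 point per library and a line at each group mean, on linear axes from 0. The groups overlap in each panel, and the Upf1 to Upf2 ratio has its highest (5.45) and lowest (2.30) values in siNC.

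The siNC and siQk ranges were compared gene by gene. For 6 of 9 genes (Upf1, Upf2, Upf3b, Smg1, Casc3 and Eif4a3) all 3 siQk libraries fell inside the siNC range, against 29.3% of all genes tested. The SD of RPKM was smaller in siQk than in siNC for the same 6 genes, against 60.4% of all genes tested, a share near theirs. Values that lie inside the siNC range tend to have a smaller SD, so this count is not a separate observation.

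The rest of the pathway was measured beside these factors. Together with 9 other decay factors, 9 other exon junction proteins, 8 termination and cap-binding factors and 17 decay enzymes, 52 factor genes were tested. None was called and none reached an unadjusted p under 0.05 in the edgeR quasi-likelihood test, and the lowest p was 0.0728, for Parn. Each of the genes named in the next 2 paragraphs had an adjusted p of 1, and all except Rbm8a were named for having the smallest p of their list.

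Of the other decay factors, 5 were higher and 4 lower in fold change. The helicase Mov10 had a log2 fold change of 0.32, Smg9, a regulator of the SMG1 kinase, had -0.21, and the decapping coactivator Pnrc2 had -0.10. Termination and cap-binding factors had a median of -0.051 (-0.12 without siNC replicate 2 and 0.034 without siNC replicate 3), with Gspt1, the release factor eRF3a, at -0.19, the scaffold Eif4g1 at -0.12 and the nuclear poly-A binding protein Pabpn1 at -0.10. The decay enzymes had a median of 0.034 (-0.027 without siNC replicate 1 and 0.12 without siNC replicate 3), with the deadenylase Parn at -0.39, the decapping scaffold Edc4 at 0.21 and the decapping enzyme Dcp2 at -0.31.

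Of the other exon junction proteins, 3 of 9 had siQk libraries that all lay above every siNC library, against 5.35% of all genes tested. Over all 52 factor genes the count was also 3, with 0 lower, so the share over the whole set was near that of all genes. Magoh was 94.1, 63.1 and 98.8 RPKM in siNC and 103, 109 and 104 RPKM in siQk. Its near-identical paralog Magohb was 21.8, 15.9 and 20.7 RPKM in siNC and 24.9, 23.5 and 25.8 RPKM in siQk. Pnn, a nuclear protein of the outer complex, was 28.0, 27.7 and 31.1 RPKM in siNC and 32.1, 36.2 and 34.9 RPKM in siQk. The log2 fold changes were 0.27, 0.32 and 0.22, with unadjusted p of 0.214, 0.157 and 0.171 in the edgeR quasi-likelihood test, so none passed. In siNC replicate 2 both Magoh and Magohb were at their lowest. Rbm8a, the partner of Magoh and named here after its values were seen, was 58.7 to 78.3 RPKM with the groups mixed. The median log2 fold change of the 9 proteins was 0.062, and it was 0.026 without siNC replicate 2 and 0.16 without siQk replicate 2.

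The last question was whether transcripts known to be cleared by the pathway moved. A list of 11 such RNAs, 5 of them snoRNA hosts and the rest mostly stress transcripts, had 2 higher and 9 lower in fold change, with a median log2 value of -0.13, which ran from -0.27 when siNC replicate 2 was left out to 0.028 when siNC replicate 1 was, and was -0.0042 in voom with quality weights. None was called, and 2 of 11 had an unadjusted p under 0.05 and were lower, against 1.69% of all genes tested. They were Ddit3, the stress transcription factor CHOP, and Tbl2.

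Ddit3 was 312, 225 and 366 RPKM in siNC and 211, 199 and 197 RPKM in siQk. Every siQk library was below every siNC library, the only such case among the 11, with a log2 fold change of -0.60 (edgeR unadjusted p 0.0132, adjusted p 1). Tbl2 was 15.2, 20.9 and 20.1 RPKM in siNC and 11.5, 15.1 and 15.5 RPKM in siQk, where siQk replicate 3 lay just above siNC replicate 1 (log2 fold change -0.44). Atf3 had a log2 fold change of -0.53 and overlapping groups. The 5 snoRNA hosts of the list, which do not code for protein and are named here after their values were seen, had log2 fold changes of -0.036 (Gas5), -0.13 (Snhg1), -0.16 (Snhg12), 0.20 (Snhg15) and -0.13 (Zfas1).

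For scale, the 3 transcripts that the study linked to decay after Qk knockdown were chosen on these libraries, so their fold changes here give no independent evidence. Their log2 fold changes were -1.77 for L3hypdh, -1.43 for Daam2 and -0.76 for Rab12, all with separate groups and none called in the quasi-likelihood test (edgeR adjusted p 0.614, 0.614 and 1). The exact and likelihood-ratio tests of edgeR each called 5 genes in all, where the quasi-likelihood test called 1. The study's own edgeR analysis listed L3hypdh and Daam2 as lower at a p under 0.01 and an adjusted p under 0.1. Its case for decay also rested on RT-PCR of the altered exons and on Qki5 binding clusters. In its quantitative RT-PCR, levels were restored by cycloheximide, which can inhibit the pathway.

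**Figure D4:**
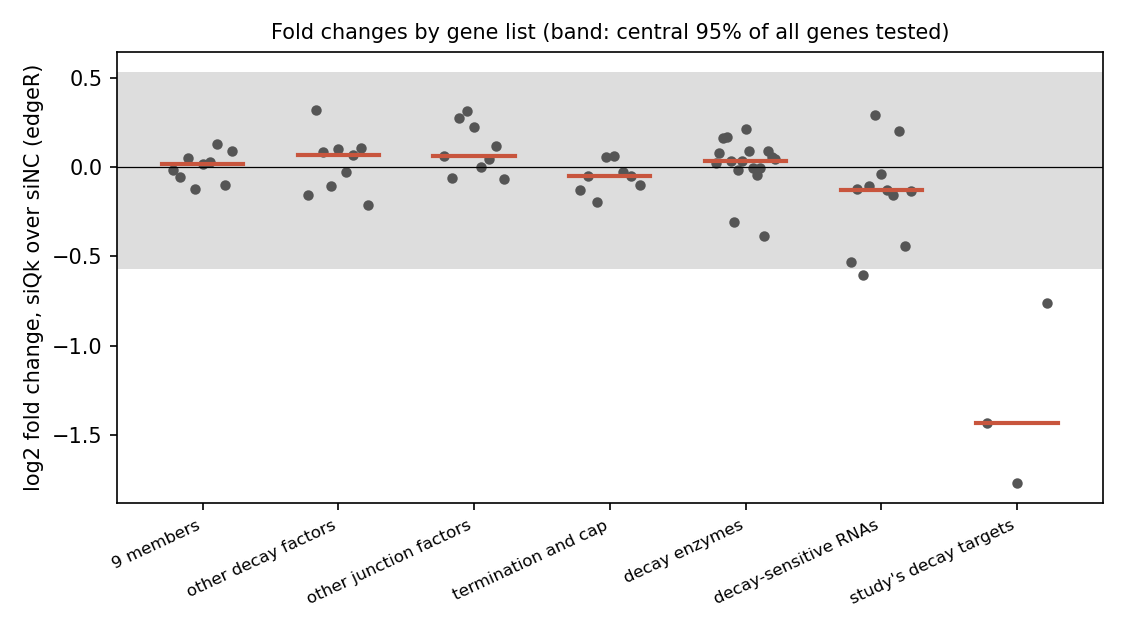
Log2 fold change, siQk over siNC, of every tested gene in 7 lists (points) with the list median (red line) and a grey band for the central 95% of all 12665 genes tested, -0.57 to 0.53. All 52 factor genes in the first 5 lists lie inside the band, and the study's decay targets lie below it.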

How the data were processed

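Poly-A mRNA libraries (TruSeq kit, no strand kept) of 3 siNC and 3 siQk NSC-34 cultures were sequenced by the authors as 75-base pairs, aligned with OLego to mm10 and counted per gene with Quantas; versions are not given in the sources used here. The deposited values were expected counts per gene (21.9% to 22.9% not whole numbers) and RPKM, which the authors scaled by exon length and column total only.

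Expected counts were rounded. Genes with a mean log2 CPM above 0 were kept and scaled by TMM, and siQk was tested against siNC with the quasi-likelihood test of edgeR 4.0.16 (R 4.3.3), all 6 libraries in one fit, with Benjamini-Hochberg adjustment over 12665 genes. Intervals used log2 CPM at a prior count of 2 and 4 residual degrees of freedom. The replicates are independent cultures per the study. Alternatives were other scalings, filters and tests (DESeq2 1.42.0, limma 3.58.1 voom), a replicate block and leaving out each library.

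The 9 genes and all lists were chosen with earlier results of these data known. Named beside the 9 genes were Qk and, per list of pathway genes, up to 3 with the smallest p. Isl1, Prph, Chat and Stmn2 (markers), Rbm8a and the snoRNA hosts were named after their values were seen. Genes were matched by symbol or, for 4 genes (Smg8, Smg9, Snhg15 and Zfas1), by Entrez identifier. Positions and sequences come from GENCODE M21 (GRCm38, the build of mm10), not from the model counted over.
Some list genes and values are not reported here.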

Additional observations from a re-analysis of the deposited data

How the results depend on the processing

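None of the 9 factors was called, and none had an unadjusted p under 0.05, in the 16 alternative fits. Their median log2 fold change stayed between -0.032 and 0.050. The number of all genes called was 5 in the edgeR exact test, 5 in the likelihood-ratio test, 19 in DESeq2, 2 in voom with quality weights and 0 to 1 over the 6 fits that each left out a library (0 without siNC replicate 1, where Qk was not called at a log2 fold change of -3.09). Genes at an unadjusted p under 0.05 numbered 366, and 589 without a filter, 750 in voom with quality weights and 562 without siNC replicate 3. Signs of the near-zero log2 fold changes were not stable, and the cause was not tested. Casc3 went to 0.0078 under total counts, where the median of all genes was 0.028, and Upf3a and Eif4a3 to 0.12 and 0.071 in voom. Leaving out 1 library gave -0.049 to 0.135 for Upf1, -0.067 to 0.45 for Upf2, -0.23 to 0.058 for Upf3a, -0.0020 to 0.25 for Upf3b, -0.13 to 0.15 for Smg1, -0.034 to 0.076 for Smg6, -0.079 to 0.038 for Casc3 and -0.19 to 0.059 for Eif4a3. Smg5 kept its sign in all 16 fits. Over the same omissions the log2 ratio difference ran from -0.225 to 0.145 for Eif4a3 to Casc3, positive without siNC replicate 3, and from -0.443 to 0.179 for Upf1 to Upf2, positive without siNC replicate 1. Upf3a to Upf3b stayed negative, from -0.371 to -0.0178. The other exon junction proteins had a median of 0.19 in voom and of 0.026 to 0.16 over the omissions.

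Libraries with the same replicate number were treated as unpaired, since the correlation over genes of their deviations from the group means was 0.213, 0.0180 and -0.170. With the replicate block, 1 gene was called, 0 of the 9 factors, whose median was 0.013, and the 3 ratio differences (-0.219, -0.0332 and -0.144) equal the unpaired ones by construction, so the block is no check of them. Each factor had at least 1045 counts in every library, so its interval rested on the spread of 3 cultures per group more than on depth.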
